A study of Mus musculus and Rattus norvegicus with 4 samples.

Results

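The muscle ankyrin repeat genes are a family of 3 members, Ankrd1, Ankrd2 and Ankrd23, taken by name from the 21887 protein-coding genes on placed mouse chromosomes. MEF2A binding near them was read from the C2C12 peak list, which holds 2797 peaks. All peaks within 100 kb of the annotated span of a member were collected, and this gave 5 peaks at 2 of the 3 genes. The family was selected on the number and scores of the Ankrd1 peaks in this same list, so the values of the members are a description and none was tested.

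The binding data come from ChIP-exo, in which immunoprecipitated DNA is trimmed by an exonuclease up to the edge of the bound protein. The C2C12 sample is a mouse myoblast line kept for 48 h in differentiation medium with 2% horse serum, immunoprecipitated with an antibody to MEF2A. The second MEF2A sample is primary cardiomyocytes from rats aged 1 to 3 days, and normal rabbit IgG served as antibody in a further library of each cell type. Each group has 1 library, and the IgG libraries were not analysed here. No replicate shows which peaks recur, and the depth of the libraries is unknown. Expression was not measured in these libraries, so neither the identity of the cells nor the activity of the genes near a peak was checked here.

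Ankrd1 encodes CARP, Ankrd2 encodes ARPP and Ankrd23 encodes DARP. These proteins bind the N2A region of titin, the giant elastic protein of the sarcomere, and can also be found in the nucleus. They are known as stretch and stress responsive genes of striated muscle, with Ankrd1 most abundant in the heart and Ankrd2 in slow skeletal muscle. MEF2A, one of the MEF2 transcription factors, binds an A/T-rich DNA element at many muscle genes.

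The members differed in whether a peak lay over the start of the gene, so the sequence ahead of each start site is shown first. The sequences are from RefSeq (GRCm38.p6, the assembly behind mm10), 5′ to 3′ on the strand of the gene. All 3 members had an entry in the promoter table. Capitals mark matches, on either strand, to 5 motifs: the E-box (CANNTG), bound by MyoD-type factors; the MCAT element (CATTCC), bound by TEAD factors; the AP-1 site (TGANTCA); the CArG box, bound by serum response factor; and the MEF2 consensus. The Ankrd1 stretch is the 250 bases ahead of the start site (chr19:36119845-36120094, minus strand), all of them inside the strongest peak of the family. For Ankrd23 it is the 250 bases ahead of the more upstream of 2 annotated starts (chr1:36536557-36536806, minus strand). For Ankrd2 only the 140 bases ahead of the annotated span are printed (chr19:42035777-42035916, plus strand).
Ankrd1: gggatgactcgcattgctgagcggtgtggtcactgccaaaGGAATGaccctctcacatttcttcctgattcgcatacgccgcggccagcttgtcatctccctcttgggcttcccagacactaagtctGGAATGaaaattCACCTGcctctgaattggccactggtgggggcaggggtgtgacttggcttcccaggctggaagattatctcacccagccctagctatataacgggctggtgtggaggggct
Ankrd2: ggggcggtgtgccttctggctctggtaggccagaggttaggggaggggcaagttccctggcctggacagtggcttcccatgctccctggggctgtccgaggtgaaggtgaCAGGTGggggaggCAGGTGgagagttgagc
Ankrd23: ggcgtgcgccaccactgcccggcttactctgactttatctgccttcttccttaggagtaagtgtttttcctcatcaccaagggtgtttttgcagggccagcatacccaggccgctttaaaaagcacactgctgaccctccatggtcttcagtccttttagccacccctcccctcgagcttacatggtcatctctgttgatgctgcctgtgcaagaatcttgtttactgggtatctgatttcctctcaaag

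No MEF2 consensus was found in any of the 4 promoter windows of the family. A window runs from 250 bases before to 50 after a start site, 300 bases in all. Of all 32851 windows in the table, 3.19% held the consensus, and of the 99 windows overlapped by a C2C12 peak 13.1% held it. The Ankrd1 window also lacked the consensus with 1 mismatch allowed, which 26.9% of all windows and 49.5% of those under a peak held. This says only that these letters are not in the window. The window covers 300 of the 651 bases of the Ankrd1 peak, and the other 351 were not read because no mouse genome sequence was used here.

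The Ankrd1 window held 2 MCAT elements, at bases 210 to 205 and 123 to 118 before the start site, both on the strand opposite to the gene. An MCAT element occurs in 14.7% of all windows and 18.2% of the 99 under a peak, and 2 or more occur in 1.36% and 3.03%. Of the 23 windows under a peak scoring 200 or more, 17.4% held an MCAT element and 2 (8.70%) held 2 or more. The Ankrd1 window is itself 1 of these 2, and it is also counted in the shares of the 99 windows under a peak. The Ankrd1 window also held an E-box at 111 to 106 bases before the start site, which is common, being found in 72.3% of all windows and 66.7% of those under a peak. Ankrd2 held 3 E-boxes and no MCAT element. In the upstream window of Ankrd23 the only match was an MCAT element after the start site, and the window of its other start held 1 MCAT element and 2 E-boxes. Neither a CArG box nor an AP-1 site was found in any window of the family (1.63% and 7.81% of all windows hold one, and 1.01% and 13.1% of those under a peak). GC content was 54.7% for Ankrd1, 62% for Ankrd2, and 51.7% and 57.3% for the windows of Ankrd23.

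Ankrd1 (gene ID 107765; chromosome 19, 36111965 to 36119844, mm10, minus strand) had 4 peaks, all within 0.688 kb of its span. The scores, as the authors' peak caller gave them and higher for stronger peaks, were 1274.5, 100.25, 80.4 and 62.0. The list as a whole had a lowest score of 50.1, a median of 77.0 and an upper quartile of 138.8. A single strong peak therefore stood beside 3 that lay below the upper quartile. No header gives the scale of the score, so it orders the peaks but a ratio of scores is not a ratio of bound DNA.

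The strong peak ran from 36119565 to 36120215 and covered the annotated start site. It reached 371 bp before the start and 279 bp after it, with its centre 46 bp before. Its score ranked 23 of 2797 in the list and second on chromosome 19, and its width of 651 bp ranked 15. The peak of score 100.25 (36120299 to 36120482, 184 bp, rank 1026) lay further upstream, after a gap of 83 bp. Joined, the pair would make a region of 918 bp at the start of the gene.

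The remaining peaks lay on the downstream side of the start. The peak of score 80.4 (36117170 to 36117303, 134 bp, rank 1328) was inside the gene, with its centre 2.61 kb after the start site. The gene table gives no exons, so an exon and an intron were not told apart there. The weakest (36111152 to 36111277, 126 bp, score 62.0, rank 1946) lay 0.688 kb past the end of the gene. From the first to the last peak the run measured 9.33 kb, with gaps of 5.89, 2.26 and 0.083 kb.

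**Figure D1:**
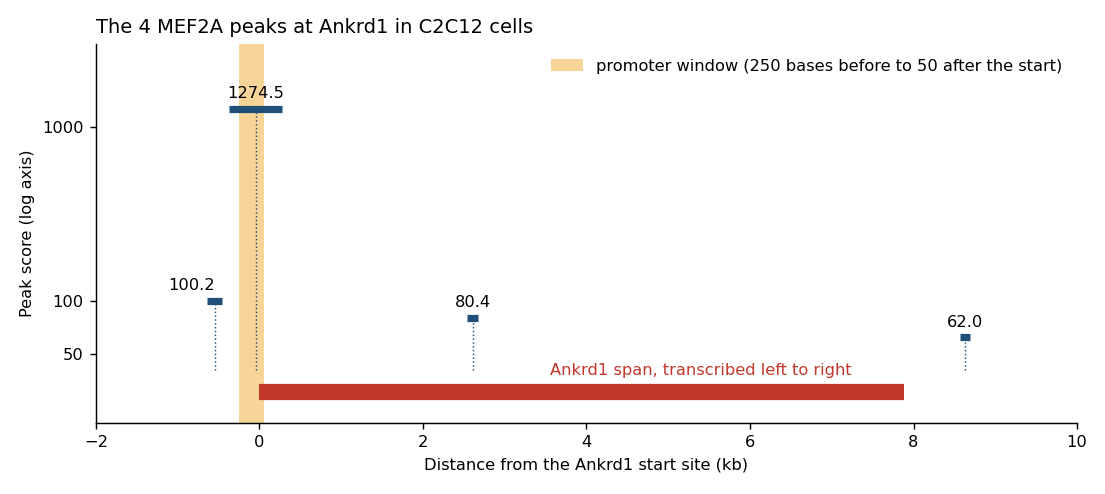
MEF2A peaks at Ankrd1 in C2C12 cells, with distance from the start site in kb in the direction of transcription on the x axis and the authors' peak score on a log y axis. Each blue bar is a peak drawn to its width, dotted lines mark peak centres, the red bar is the gene span and the shaded band is the promoter window. The peak of score 1274.5 lies across the start site, and the other 3 score from 62.0 to 100.25.

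Outside the 100 kb limit, the next peak on the upstream side lay 144.5 kb from the Ankrd1 span (36264387 to 36264549, score 67.3), 194 bp from the lncRNA gene Gm32027. On the other side the next peak was 0.969 Mb away (score 98.2). In the whole list the median gap between neighbouring peaks was 352.2 kb and the upper quartile 1132.8 kb. Neither distance was therefore long for this list. The same 4 peaks also fall within 100 kb of Rpp30, a ribonuclease P subunit gene 7.19 kb from Ankrd1, and of Htr7, a serotonin receptor gene 53.8 kb away. They were 6.38 kb or more from Rpp30 and 53.0 kb or more from Htr7, and Ankrd1 was the nearest protein-coding span for all 4. The lncRNA gene Gm32081 lay 64.7 kb from Ankrd1. Pcgf5, a Polycomb subunit gene and the next protein-coding gene upstream, lay 228.5 kb away.

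Ankrd2 (gene ID 56642; chromosome 19, 42035917 to 42045111, plus strand) had no peak. The nearest was 1.38 Mb away on the lower-coordinate side (40654353 to 40654478, score 62.0), inside the span of Entpd1, an ectonucleotidase gene. On the other side the nearest was 1.52 Mb away (43560233 to 43560608, score 263). The gene thus lay in a stretch of 2.91 Mb without a listed peak, and 7.997% of the gaps between neighbouring peaks in the list were longer. The median gap was 352.2 kb. Both values count gaps, and a long gap covers more of a chromosome than a short one. They therefore do not show how often a gene lies in such a stretch. Ankrd2 has close neighbours, Ubtd1 at 1.27 kb and Hoga1 at 0.448 kb. Both lie in the same stretch, so they too had no peak within 100 kb. Ankrd1 and Ankrd2 lie on the same chromosome, 5.92 Mb apart, with 9 peaks between their spans. The list holds only peaks that passed the authors' calling, so weaker binding at Ankrd2 would not appear in it.

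Ankrd23 (gene ID 78321; chromosome 1, 36530193 to 36536556, minus strand) had 1 peak, at 36492545 to 36492685 with a score of 122.7 (141 bp, rank 820). It lay 37.5 kb beyond the 3′ end of the gene and inside the span of Cnnm4, a magnesium transporter gene. Cnnm3, of the same transporter family, lies between the peak and Ankrd23 and was nearer to it, at 19.2 kb. The peak is therefore near Ankrd23 only by the distance rule. It falls within 100 kb of 6 further protein-coding genes, which are Fer1l5, Lman2l, Cnnm3, Ankrd39, Sema4c and Fam178b. No peak lay over either annotated start of Ankrd23. Outside the limit, the next peaks on the same side were at 222.2 kb (score 57.1) and 226.5 kb (score 164.2). On the other side the next was 2.44 Mb away (score 887.5). The stretch without a listed peak around the Ankrd23 span thus measured 2.49 Mb, beside 2.91 Mb around Ankrd2.

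**Figure D2:**
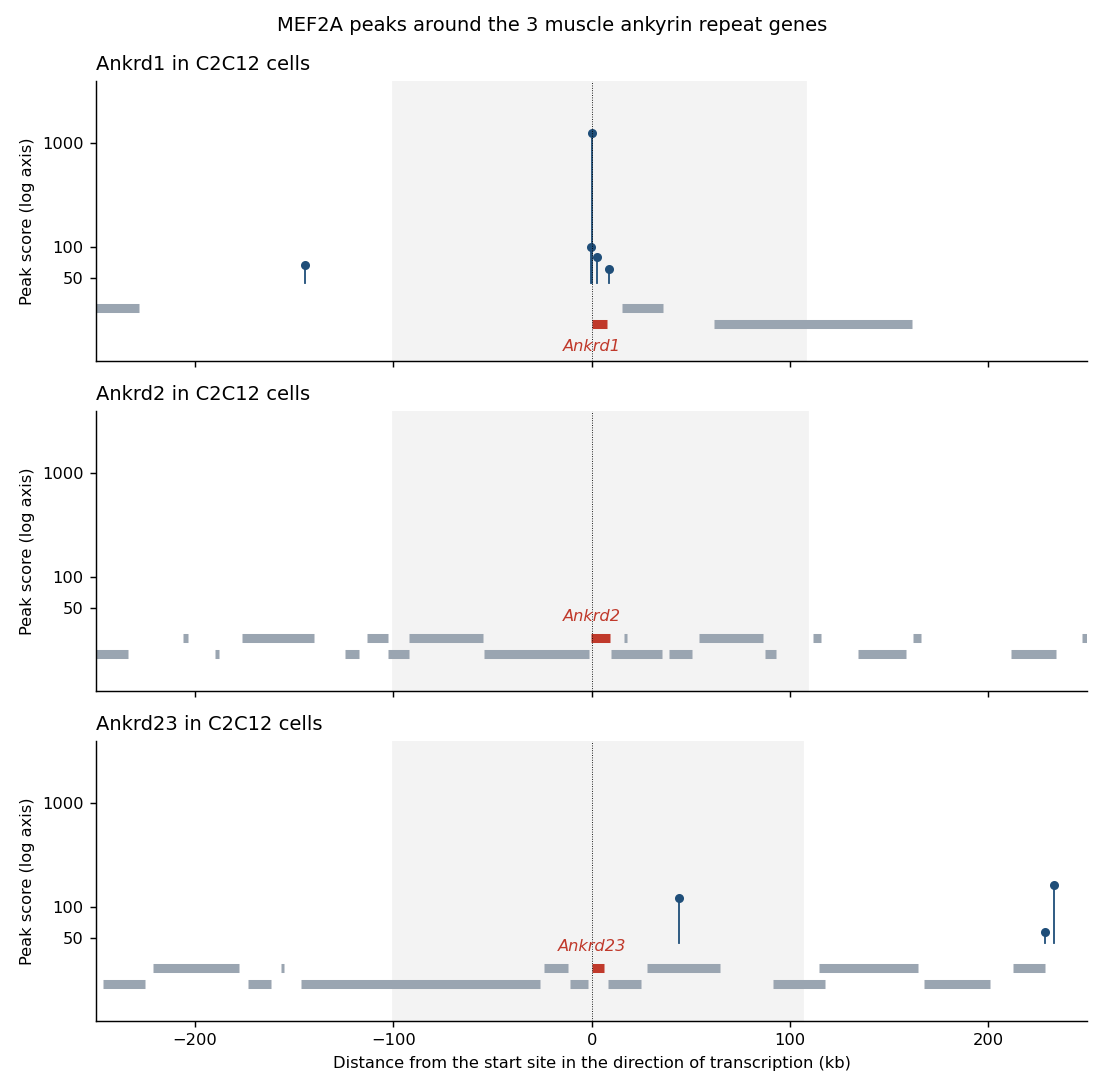
Peaks and protein-coding spans around the 3 genes in C2C12 cells, with distance from the start site in kb in the direction of transcription on the x axis and the authors' score on a log y axis. Stems are peaks, red bars the member, grey bars other protein-coding genes (2 levels only for legibility) and the shaded band the member's span with 100 kb on each side. The 4 Ankrd1 peaks lie on the gene or within 0.688 kb of it, the Ankrd23 peak lies over another gene, and no stem appears at Ankrd2.

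The number of peaks differed between the members as 4, 0 and 1. Across all protein-coding genes 22.0% had a peak within 100 kb, so neither a gene with a peak at this distance, as Ankrd23, nor a gene without, as Ankrd2, was unusual. Genes with 4 or more peaks within 100 kb were few (159, or 0.726%), and 4 or more within 10 kb, as at Ankrd1, were found for 22 genes (0.101%). Among these 22, Ankrd1 had the second-highest score, after Pakap (2067), an anchoring protein gene, and before Atf6 (947), an unfolded protein response regulator. Peaks chained by gaps under 10 kb formed 13 runs of 4 or more peaks in the list. The Ankrd1 run had the highest top score of the 13, whose median was 160.5. With peaks under 1 kb apart merged, Ankrd1 had 3 peaks and would fall out of these counts of 4 or more. The counts over all genes and runs were not repeated with merged peaks.

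Strong peaks in the list mostly had no close companion. Of the 32 peaks scoring 1000 or more, 24 had no other peak within 10 kb, 5 had 1 and 2 had 2. The Ankrd1 peak was the only one of the 32 with 3. Among its companions is the peak only 83 bp away, which merging of peaks under 1 kb apart would join to it. The companions of the 32 peaks were not counted again with merged peaks. Its width was ordinary among them, where widths ran from 415 to 3636 bp with a median of 601 bp. Across all genes 0.452% had a peak of 1000 or more within 100 kb. The limits of 10 kb and of 1000 were chosen after the Ankrd1 values were known, so these counts describe the list and are no test.

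A peak over a promoter window was rare in this list. Of 17492 protein-coding genes with a promoter window in the table, 65 (0.372%) had a peak over a window, with a median score of 78.3. Ankrd1 ranked second of the 65. First was Calhm5 (1559), a calcium homeostasis modulator gene, and after Ankrd1 came Prkag3 (848), which encodes a regulatory AMPK subunit of skeletal muscle, and Lmod2 (665), which builds thin filaments. Of the 22 peaks in the list that scored above the Ankrd1 peak, 1 overlapped a promoter window of a protein-coding gene.

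**Figure D3:**
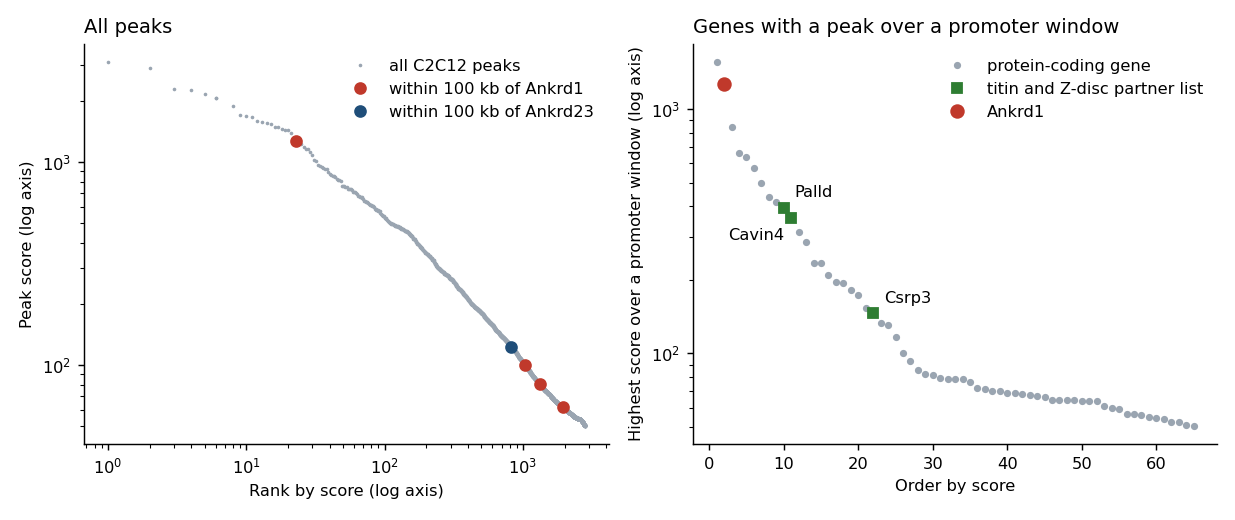
Left, the score of every C2C12 peak against its rank (both log axes), with the peaks within 100 kb of Ankrd1 and Ankrd23 in colour. Right, the highest score over a promoter window (log axis) for the 65 protein-coding genes that have one, in order of score. Ankrd1 holds rank 23 on the left and the second place on the right, and its other peaks lie at ranks 1026 to 1946.

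By number and strength of peaks, the genes most like Ankrd1 were taken as those with exactly 4 peaks within 100 kb and the nearest highest score on a log10 scale. The likeness rests on 1 library. The rule gave 7 genes, as 4 tied for the last places. Rpp30 and Htr7 were taken because they share the Ankrd1 peaks themselves. Prrx1, a mesenchymal homeobox gene, had a highest score of 1395.5 at 67.2 kb. Btg2, an antiproliferative gene, Chit1 and Chil1, which encode chitinase family proteins, and Adora1, an adenosine receptor gene, shared a highest peak of 1582 at 11.6 to 99.6 kb. None of the 7 had a peak over a promoter window in the table. Of all protein-coding genes with a window 0.372% had one, so this count says nothing particular about the 7.

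The partners of the family at titin and the Z-disc were also examined, in a list of 36 genes that was drawn up with earlier results of these data known. In it 19 genes (52.8%) had a peak within 100 kb, beside 22.0% of all protein-coding genes, and the median of their highest scores was 133.9, beside 93.4 for all 4823 genes with a peak. The list was not tested.

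Among genes of the titin spring itself, Ttn had 2 peaks (scores 186.5 and 211.9), the stronger 38.0 kb from the span and nearest to Ccdc141. Capn3, encoding the calpain bound to the N2A region, had a peak of 65.2 at 13.8 kb, nearer to Zfp106. Of the CARP partners, Mypn, encoding myopalladin, contained a weak peak (55.8), and Ybx1, which encodes the nuclear partner YB-1, and Casq2, encoding cardiac calsequestrin, had none. Des, encoding the intermediate filament desmin that ties Z-discs together, had a peak of 924.6 at 12.5 kb. Tcap, encoding telethonin, an ARPP partner, had none either.

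Among genes of the Z-disc and its actin cross-linkers, Synpo2 had 6 peaks with a highest score of 516.9, Palld, the palladin gene, had 3 with a highest score of 493, and Xirp1 had 2 with a highest score of 215.5. Flnc, encoding filamin C, had a peak of 136.4, Csrp3, encoding muscle LIM protein, 145.8, and Actn2, the α-actinin gene, 88.5 at 44.3 kb. The Actn2 peak was nearer to Heatr1. The calsarcin genes Myoz1 (66.8), Myoz2 (76.9) and Myoz3 (73.3) had weaker ones, as did Pdlim3 (73.0) and Synpo2l (66.8), which shares the peaks of Myoz1. The shared peak of 66.8 lay over Synpo2l. The highest peaks of Myoz3 (at 70.0 kb) and Pdlim3 (at 55.2 kb) were nearer to Synpo and Sorbs2. Myoz2 lies near Synpo2, and all 3 peaks of Myoz2 are among the 6 counted for Synpo2. The muscle caveolar gene Cavin4 had a peak of 359.1 and the chaperone gene Cryab one of 306.1. The LIM domain gene Fhl2 (133.9 at 54.8 kb, 4 peaks) and Trim55, a titin-binding ubiquitin ligase gene (67.7 at 11.5 kb, nearer to Crh), complete the 19.

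A peak overlapped a promoter window for 3 of the 27 listed genes that have one in the table, beside 0.372% of all protein-coding genes with a window. These were Palld (395.9 over the window), Cavin4 (359.1) and Csrp3 (145.8), each below the Ankrd1 value of 1274.5. No gene of the list had a highest score above that of Ankrd1, the nearest being Des.

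Other genes named for ankyrin repeats gave a contrast by name only, since ankyrin repeats are a common protein fold and these genes are not part of the muscle family. Of 44, 12 (27.3%) had a peak within 100 kb, close to the 22.0% of all genes, and the median of their highest scores was 88.7. The highest was 167.4, near Ankrd52 at 47.9 kb and nearer to Rnf41. Next came Ankrd13b (148.5), Ankrd39 (122.7), which shares the Ankrd23 peak, and Ankrd22 (109.3). Ankrd34c (99.7), Ankrd26 (93.8), Ankrd10 (83.6), Ankrd37 (66.2), Ankrd33b (58.1), Ankrd55 (57.8), Ankrd36 (52.6) and Ankrd11 (51.2) had lower values. Of the 44, 36 had a promoter window and none of these was overlapped by a peak, and with 0.372% of all such genes overlapped a count of 0 in 36 says nothing particular about them.

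**Figure D4:**
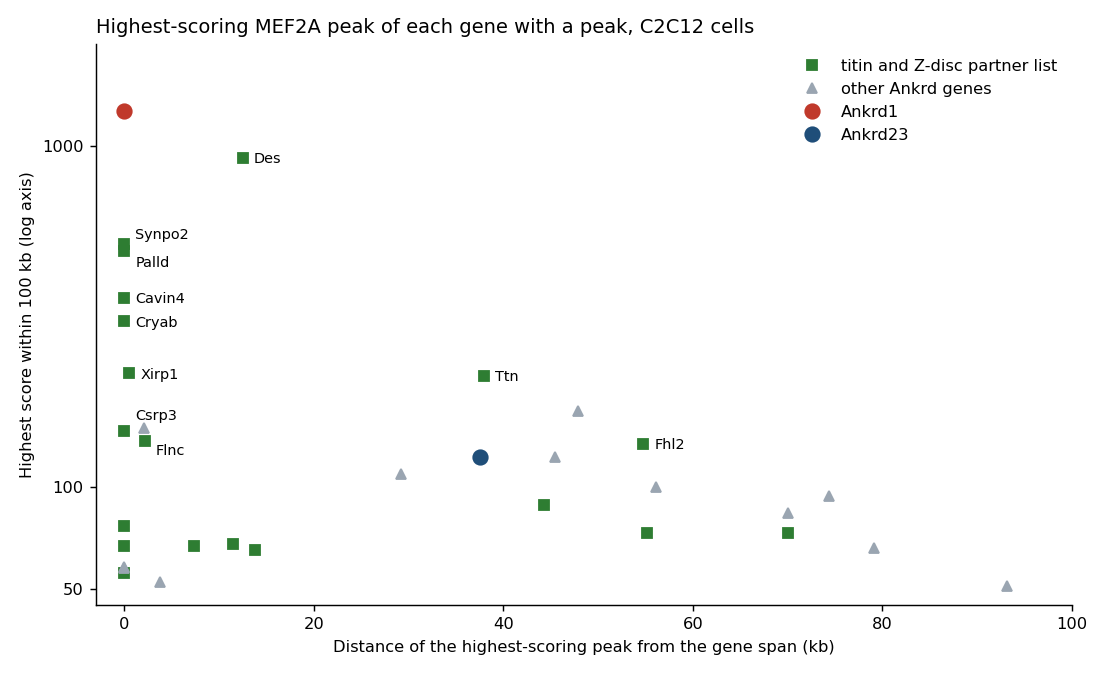
Highest score within 100 kb (log y axis) against the distance in kb of that peak from the gene span for genes with a peak in C2C12 cells. Squares are the 19 titin and Z-disc partners, triangles the 12 other Ankrd genes and circles Ankrd1 and Ankrd23. Ankrd1 is the highest point, with Des (924.6) next. Ankrd23 (122.7) lies within the score range of both lists and shares its peak with Ankrd39, which is drawn as a triangle.

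The rat cardiomyocyte list holds 1868 peaks on rn5. No rn5 annotation was used, so rat peaks near the rat members were not analysed here, and the 2 cell types were not compared for this family.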

How the data were processed

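MEF2A ChIP-exo libraries were made from C2C12 cells and rat cardiomyocytes, with a gel selection of 120 to 160 bp, per the labels' protocols. Tools named in the submitters' processing notes, without settings, are MACS 1.4.2, BWA 0.5.9, SAMtools, Picard and CASAVA 1.7.0, and the builds are mm10 (mouse) and rn5 (rat). The authors deposited 1 peak list per library, with a score per peak. The role of IgG in peak calling is not given in the sources. No header states the scale of the deposited score, so it was used only to describe and rank peaks within the list.

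Deposited starts were taken as 0-based, and printed positions are 1-based. Distances run from the edge of a peak to the edge of a RefSeq gene span (GRCm38.p6). Start sites and strands came from the promoter table, which covers 17492 of 21887 protein-coding genes. No test was run, because each group has 1 library. The members and lists were chosen with earlier results of these data known. Genes named are the members, the protein-coding genes within 100 kb of a member's peak or next to a member, list genes with a peak within 100 kb, and the 5 genes (with ties) most like Ankrd1. Genes named in the counts of runs and promoter peaks, list genes named without a peak and the lncRNA genes were chosen after their values were seen. Counting of peaks near genes was checked on simulated data. Alternatives were other distance limits, score minimums of 100 and 200, merging of peaks under 1 kb apart, distance from peak centres, nearest-gene assignment and looser MEF2 patterns. Python 3.11.15, numpy 2.4.6, pandas 2.3.3 and matplotlib 3.10.9 were used.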

Additional observations from a re-analysis of the deposited data

How the results depend on the processing

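The 4 Ankrd1 peaks stayed 4 at limits of 10, 25 and 50 kb and with nearest-gene assignment, became 3 when peaks under 1 kb apart were merged and 5 at 250 and 500 kb. With a score of at least 100 Ankrd1 had 2 peaks, and with at least 200 it had 1, by construction. Ankrd2 had 0 under each of these alternatives. Ankrd23 had 0 at limits of 10 and 25 kb, 0 with a score of at least 200, 0 with nearest-gene assignment, and 3 at 250 and at 500 kb. The titin and Z-disc list had 14 genes with a peak at 10 kb (38.9%), against 6.68% of all protein-coding genes, 24 at 250 kb (66.7%, against 40.7%) and 10 with a score of at least 100 (27.8%, against 10.3%). The other Ankrd genes had 4 at 10 and at 25 kb (9.09%, against 6.68% and 9.44% of all protein-coding genes) and 20 at 250 kb (45.5%, against 40.7%). They had 4 with a score of at least 100 (9.09%, against 10.3%) and 3 with nearest-gene assignment (6.82%, against 7.73%). With nearest-gene assignment the titin and Z-disc list had 14 genes with a peak (38.9%, against 7.73%). For the lists, nearest-gene assignment was added after seeing the data. All protein-coding genes with a peak numbered 1461 at 10 kb, 2067 at 25 kb, 3074 at 50 kb, 8900 at 250 kb, 2259 with a score of at least 100 and 1691 with nearest-gene assignment. The members' promoter windows held 0 MEF2 matches with 1 mismatch allowed and 0 with a looser pattern (CTA and TAG with any 4 bases between). Depth is unknown, and 1 library shows neither which weak peaks recur nor what lies under the threshold. No paired analysis was possible because there is only 1 library in a group.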
